A study of Rattus norvegicus with 40 samples.

Results

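Hippocampal gene expression was compared between 2 doses of lead in male rats exposed after birth. The arrays were chosen by the numbers in their titles: 2845 to 2848 for males given 750 ppm and 2873 to 2876 for males given 250 ppm, which makes 8 of the 40 arrays of the series, 4 a side. Pups of both groups had chow with lead acetate from birth until postnatal day 45, then control chow for 10 days, and were killed on postnatal day 55. The remaining arrays held males and females on control chow, females of the same postnatal doses, and rats of both sexes exposed perinatally, through dams put on lead chow 10 days before breeding until weaning. Each array measured 1 hippocampal RNA sample in 29214 probe sets as log2 signals. The labels gave no strain, litter or body lead level. Since siblings within a group, or in both sexes of a dose, are possible, the p-values refer only to the spread among the arrays measured. That spread was taken within the 10 groups, pooled over all 40 arrays, and may be partly technical.

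Lead is a toxic metal that enters the developing brain and can take the place of calcium and zinc in proteins. In the hippocampus, which serves learning and memory, it is known for blocking NMDA receptors and disturbing calcium-dependent signalling and transmitter release. In blood it is known for inhibiting enzymes of heme synthesis, above all Alad and Fech, with anemia at high exposure.

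On the 8 arrays, C1ql3, a synaptic organizer of dentate granule cells, read 10.88 to 11.08, and Syn1, a synaptic vesicle protein, read 12.07 to 12.23. Eif2s3, an X-linked translation factor subunit, read 11.21 to 11.42 on these male arrays and at least 11.62 on the 16 arrays of exposed females. Medians of the 8 arrays lay between 6.96 and 7.03, and their pairwise correlations over probe sets were 0.994 to 0.997. Elsewhere in the series 3 control arrays (1 labelled male, 2 labelled female) carried Eif2s3 on the other sex's side. Another 3 arrays had flattened signal, all from males exposed perinatally: 250 ppm replicates 1 and 3 and 750 ppm replicate 1. Each dose held an unbroken run of title numbers, so any step done in that order and the dose cannot be told apart. The male controls held a run of their own (1970 to 1973), so the same limit holds for comparisons with them. Transthyretin (Ttr), the main product of the choroid plexus, read 9.87 in the 750 ppm replicate 3 and 12.46 to 13.53 on the other 7 arrays.

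Only 3 probe sets differed between the doses (limma, adjusted p under 0.05), and all 3 were lower at 750 ppm: the Fc receptor-like gene Fcrl2, the vesicular monoamine transporter Slc18a1 and the vomeronasal receptor gene Vom2r44. They make 0.0103% of the 29214 tested. Over 14506 genes, each taken at its probe set of highest mean, the median difference (750 minus 250 ppm) was 0.000225 log2, with 7273 higher and 7233 lower. Over all 29214 probe sets the median was -0.0074. At an unadjusted limma p under 0.05, 454 of these probe sets were higher and 663 lower. Genes with an unadjusted p under 0.05 were 537 (3.7%), no larger a share than a threshold of 0.05 gives by chance. Genes whose 4 values did not overlap between the doses were 439 (3.03%, 207 of them higher at 750 ppm). The median 95% interval, not adjusted for the number of probe sets, reached 0.19 log2 to each side. A typical probe set needed a clearly larger difference than this to be called. The gene Chchd5, at 0.53 (SE 0.11, limma adjusted p = 0.122), was not called. The call count depended on single arrays and on the fit. It was 0 without the 250 ppm replicate 2, without the 250 ppm replicate 4 or without all control arrays. It was 1 without the 250 ppm replicate 1 or the 750 ppm replicate 1, and 8 when only the compared groups entered the fit. That last fit kept Fcrl2 alone of the 3, and 5 of the 7 it added were copies of 1 measurement.

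**Figure D1:**
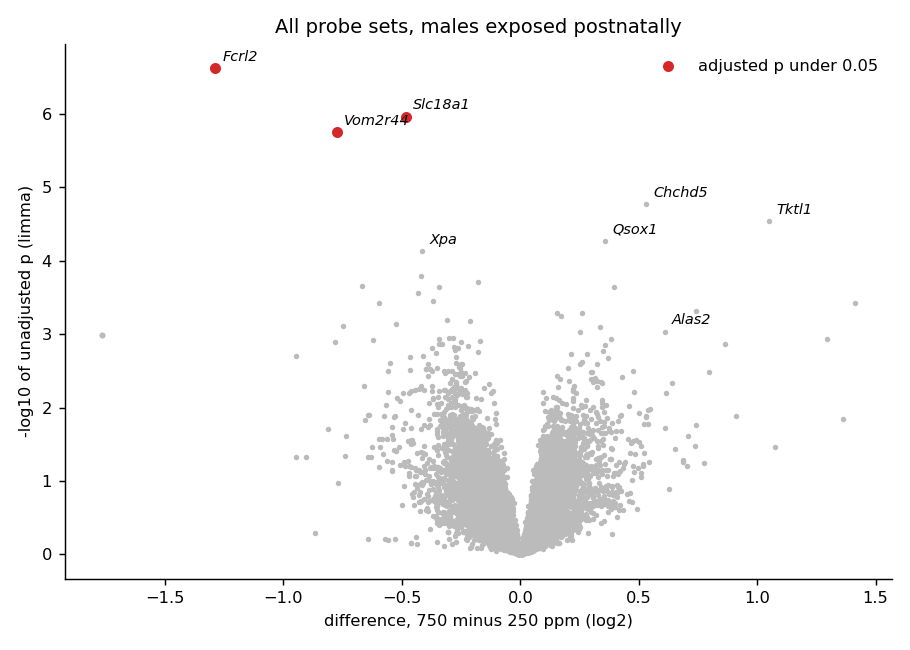
Each point is 1 probe set of the 29214, placed by its difference between the doses (x axis, 750 minus 250 ppm, log2) and by its unadjusted limma p (y axis, -log10). Red points passed an adjusted p under 0.05, and the 3 of them, all left of 0, are Fcrl2, Slc18a1 and Vom2r44.

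Fcrl2 (probe set 10824140, also listed in RefSeq as Fcrls and Msr2) encodes a protein of the Fc receptor-like family of immune cells, and its mouse counterpart is used as a microglial marker. It read 7.02, 7.18, 7.07 and 7.21 in the 4 males at 250 ppm, and 5.90, 5.89, 5.91 and 5.63 in the 4 at 750 ppm. The arrays labelled male control read 7.41, 7.33, 7.44 and 7.29. All 750 ppm arrays lay more than 1 log2 unit below the lowest array at 250 ppm. The difference was -1.29 log2 (SE 0.20, 95% interval -1.70 to -0.88, adjusted p = 0.00696), a signal 2.44-fold lower at the higher dose. The 250 ppm males differed from the male controls by -0.25 (SE 0.20, adjusted p = 0.942) and the 750 ppm males by -1.53 (SE 0.20, adjusted p = 9.22e-05). Without the male control whose Eif2s3 did not match its label these were -0.27 and -1.56. Against male controls, 9.51% of all probe sets had an unadjusted limma p under 0.05 at 750 ppm and 6.03% at 250 ppm. Between the doses the share was 3.82%. Among alternatives, Fcrl2 kept its direction in all 19 and lost its call in 3: without the 250 ppm replicate 2 (adjusted p = 0.0537), without the 250 ppm replicate 4 (0.0616) and without controls in the fit (0.0555).

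The dose difference of Fcrl2 ran the other way in females and in the perinatal window. Females exposed postnatally read 5.74, 6.13, 6.18 and 6.14 at 250 ppm and 7.14, 6.11, 6.76 and 6.87 at 750 ppm, a difference of 0.67 (SE 0.20) that was not called. Males exposed perinatally read 6.13, 5.84, 6.42 and 6.03 at 250 ppm and 6.79, 7.34, 7.02 and 6.99 at 750 ppm, a difference of 0.93 (SE 0.20), also not called. In males the low group was thus the 750 ppm group after postnatal exposure and the 250 ppm group after perinatal exposure. The male minus female contrast of the dose differences was -1.96 (SE 0.28, adjusted p = 0.00158), the only probe set called for it of 29214 (0.00342%). The postnatal minus perinatal contrast in males was -2.22 (SE 0.28, adjusted p = 0.000114), 1 of 2 probe sets called there (0.00685%).

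Over all 40 arrays the Fcrl2 signal ran from 5.63 to 7.70. Sorted values of any gene have a widest empty stretch, and no other gene was examined for it. The widest empty stretch, between 6.42 and 6.76, spanned 0.34 log2, and the next widest spanned 0.26. Below it lay 15 arrays and above it 25. The arrays below were all 4 of the males at 750 ppm postnatal, all 4 of the males at 250 ppm perinatal, all 4 of the females at 250 ppm postnatal, 2 of the females at 250 ppm perinatal and 1 of the females at 750 ppm postnatal. Both control groups and both perinatal 750 ppm groups had 0 arrays below it. Low and high signal therefore occurred at both doses, in both sexes and in both windows. The labels give neither litter nor genotype for these animals.

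**Figure D2:**
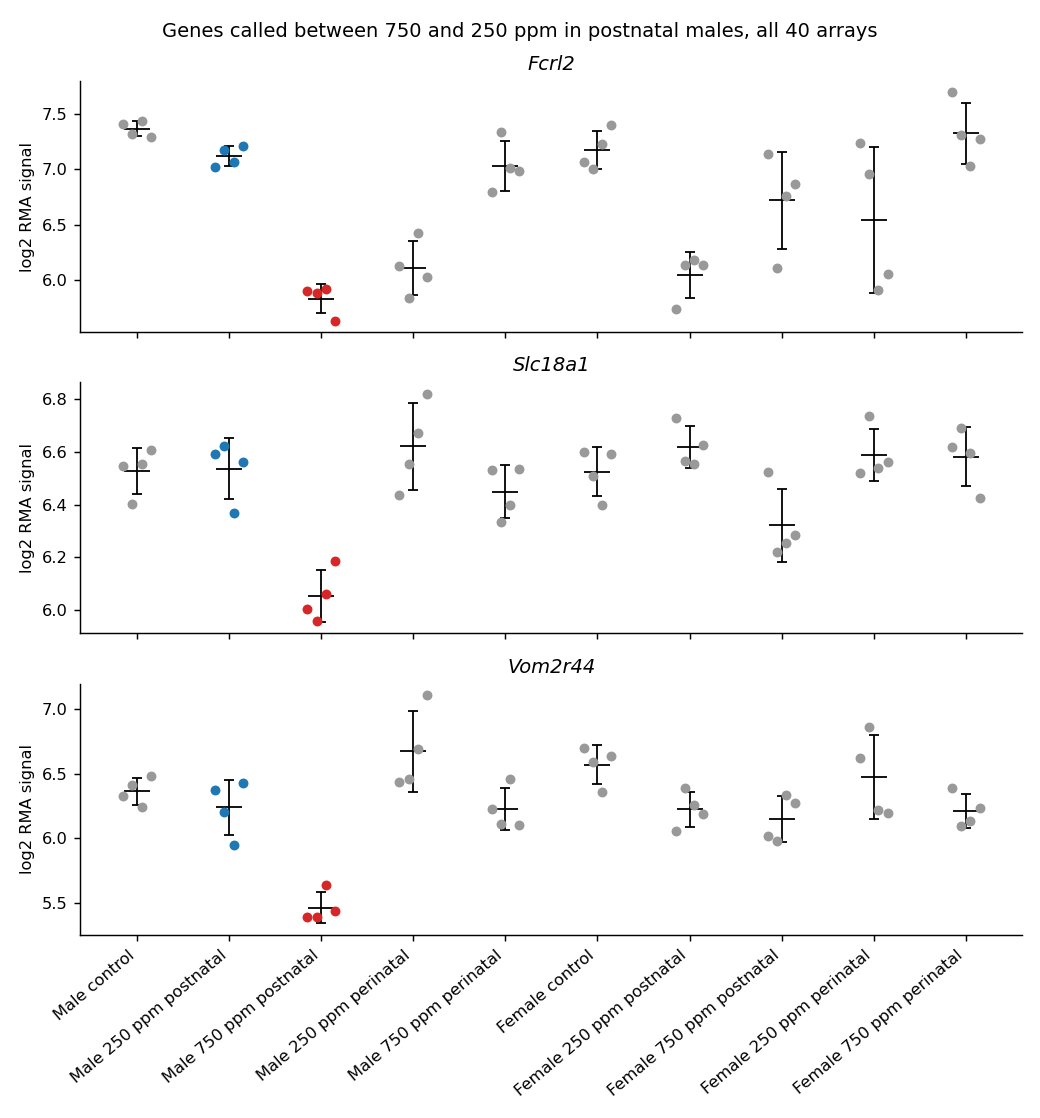
Points are the log2 RMA signals of Fcrl2, Slc18a1 and Vom2r44 in each of the 40 arrays (y axis) by group (x axis), with blue for males at 250 ppm and red for males at 750 ppm after postnatal exposure, and grey for the other groups. Horizontal marks and bars give the mean and SD of 4 arrays. Red points lie below every blue point in all 3 panels, and in the Fcrl2 panel the males at 250 ppm perinatal and the females at 250 ppm postnatal are low as well.

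The other members of the Fc receptor list gave smaller differences of both signs. Of 10 measured, 4 were higher and 6 lower at 750 ppm, Fcrl2 alone had an unadjusted p under 0.05, and the median was -0.07. Fcrla, a related intracellular protein of B cells, differed by -0.21 (SE 0.11). Fcgrt, the neonatal receptor that carries IgG across cells, differed by 0.18 (SE 0.10), and Fcgr1a, the high-affinity IgG receptor, by 0.15 (SE 0.09). Microglial markers, which share cells with the mouse counterpart of Fcrl2, gave 11 of 15 higher with a median of 0.06 and 0 with an unadjusted p under 0.05. Among them the purinergic receptor P2ry12 differed by 0.07, the receptor Tmem119 by 0.06, the lysosomal protease Ctss by 0.10 (SE 0.07), the complement subunit C1qa by 0.15 (SE 0.10) and the integrin Itgam by -0.15 (SE 0.10). In bulk tissue, fewer cells of a type and less RNA per cell cannot be told apart. Genes on either side of Fcrl2 in RefSeq order on chromosome 2 were not called, with Kirrel1, an adhesion protein, at -0.02 and Cd5l, a macrophage protein, at -0.03.

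Slc18a1 (probe set 10787740) encodes VMAT1, which loads monoamines into vesicles, mainly in neuroendocrine cells. It read 6.59, 6.62, 6.37 and 6.56 at 250 ppm, 6.01, 5.96, 6.06 and 6.19 at 750 ppm, and 6.55, 6.40, 6.56 and 6.61 in male controls. The 250 ppm and control arrays overlapped, and all 4 arrays at 750 ppm lay below both. The difference was -0.48 (SE 0.08, 95% interval -0.65 to -0.32, adjusted p = 0.0158), or 1.40-fold lower. Females gave -0.30 (SE 0.08) and perinatal males -0.17 (SE 0.08), neither called, and neither contrast of the dose differences was called (by sex -0.19, SE 0.12, and by window -0.31, SE 0.12). The call was lost in 9 of 19 alternatives, with adjusted p from 0.00417 to 0.243 over all of them, while the difference stayed between -0.54 and -0.44. The highest of these limma p-values came with only the compared groups in the fit.

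Other genes of monoamine synthesis and transport gave smaller values. Of 15 measured, 5 were higher and 10 lower, with a median of -0.07. Tph2, the rate-limiting enzyme of serotonin synthesis in neurons, read 5.49, 5.29, 5.30 and 5.44 at 250 ppm and 5.20, 5.21, 5.20 and 5.19 at 750 ppm. Its groups did not overlap, and its difference of -0.18 (SE 0.07) was not called. The serotonin transporter Slc6a4 differed by -0.16 (SE 0.11), and Slc18a2, the vesicular transporter of monoamine neurons in brain, by -0.09 (SE 0.08). The acetylcholine member of the same family, Slc18a3, differed by -0.10 (SE 0.10). Of 27 monoamine receptors, 13 were higher and 14 lower, the median was -0.0025, and 0 had an unadjusted p under 0.05. The genes next to Slc18a1 on chromosome 16 were not called: Atp6v1b2, a proton pump subunit, differed by 0.05 and Lzts1 by 0.04.

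Vom2r44 (probe set 10815724) belongs to the type 2 vomeronasal receptors, a family of many similar genes that detect pheromones in the vomeronasal organ. It read 6.37, 6.21, 5.95 and 6.43 at 250 ppm, 5.39, 5.39, 5.64 and 5.44 at 750 ppm, and 6.33, 6.41, 6.24 and 6.48 in male controls. All 4 arrays at 750 ppm lay below every array of the other groups of males named here. The difference was -0.77 (SE 0.14, 95% interval -1.05 to -0.50, adjusted p = 0.0173), or 1.71-fold lower. In females the difference was -0.07 (SE 0.14) and in perinatal males -0.45 (SE 0.14), neither called, and the contrast by sex (-0.70, SE 0.19) was not called. The call was lost in 9 of 18 alternatives, with adjusted p from 0.00543 to 0.137. Among these was the fit of only the compared groups (limma, adjusted p = 0.091). Vom2r44 is itself among the dimmest 40% of probe sets, so it was not tested without them, and that filter left 2 calls, Fcrl2 and Slc18a1. Of 52 type 2 vomeronasal receptors measured, 26 were higher and 26 lower with a median of 0.0035, and the most negative after Vom2r44 was Vom2r25 at -0.26 (SE 0.11). Vom2r46, the next measured gene along chromosome 2, read 3.47 to 3.65 and differed by -0.07 (SE 0.10). Probes of this family can share sequence, so the signal may not come from Vom2r44 alone.

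On the higher side no probe set was called. The gene of smallest p was Chchd5, a mitochondrial intermembrane protein, which read 9.38, 9.29, 9.26 and 9.36 at 250 ppm and 9.77, 10.00, 9.70 and 9.94 at 750 ppm. All 4 values at 750 ppm lay above all 4 at 250 ppm and above the male controls (9.28, 9.24, 9.27 and 9.40). The difference was 0.53 (SE 0.11, adjusted p = 0.122), and it passed in 2 of 19 alternatives, with array weights and with only the compared groups in the fit. Against male controls the 750 ppm males differed by 0.56 (adjusted p = 0.0199) and the 250 ppm males by 0.03. Females gave 0.21 (SE 0.11) and perinatal males -0.27 (SE 0.11), and the contrast by window was 0.80 (SE 0.15, adjusted p = 0.0663).

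Polr1b, a subunit of RNA polymerase I, is the gene just before Chchd5 on chromosome 3, and Zc3h8, a zinc finger protein, lies farther along. Both also had groups that did not overlap (3.03% of all genes did not). They were among the 12 higher genes of smallest p without overlap, so these same values chose them. Neighbours were looked up over 8 genes a side for Chchd5 and over 4 for each called gene, and Zc3h8 lies beyond 4. Polr1b read 7.75, 7.84, 7.79 and 7.73 at 250 ppm and 7.94, 8.18, 7.99 and 8.22 at 750 ppm, a difference of 0.30 (SE 0.10). Zc3h8 read 7.35, 7.64, 7.52 and 7.41 at 250 ppm and 7.74, 7.95, 7.92 and 7.66 at 750 ppm, a difference of 0.34 (SE 0.09). Other genes in the stretch were not higher together: Zc3h6 differed by 0.04 and Ttl, a tubulin ligase, by -0.04. On the far side Slc20a1, a phosphate transporter, differed by -0.10, and the cytokine gene Il1a by -0.32 (SE 0.13), whose groups did not overlap either, on the lower side. None of these was called. Both Polr1b and Zc3h8 gave 0.08 in females (SE 0.10 and 0.09).

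The other genes of smallest p whose 4 values did not overlap were, on the higher side, Qsox1, Fkbp1a, C5ar1, Alas2, Cd44, Nkg7, Zbtb45, Swsap1 and Cd70. Qsox1, which forms disulfide bonds in secreted proteins, read 7.87, 7.71, 7.56 and 7.83 at 250 ppm and 8.18, 7.98, 7.91 and 8.34 at 750 ppm (difference 0.36, SE 0.08, adjusted p = 0.261). Fkbp1a, the FK506-binding protein that steadies calcium release channels, read 12.09 to 12.15 and 12.22 to 12.30 (0.16, SE 0.04). C5ar1, the receptor of complement C5a on myeloid cells, read 6.70 to 6.94 and 6.98 to 7.21 (0.26, SE 0.07). These are small steps against a narrow spread, and none passed after adjustment. The hyaluronan receptor Cd44 differed by 0.25 (SE 0.07), the cytotoxic granule protein Nkg7 by 0.38 (SE 0.11) and the TNF family ligand Cd70 by 0.30 (SE 0.10). Swsap1, a DNA repair cofactor, differed by 0.28 (SE 0.08), and Zbtb45, a zinc finger protein, by 0.22 (SE 0.06).

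On the lower side, besides the called genes, these were Xpa, Stxbp5, Rpgr, Grm2, Tmem14a, Dgka, Tm4sf19, Klk1c8 and Rab7b. Xpa, which recognizes DNA damage in nucleotide excision repair, read 7.45, 7.59, 7.71 and 7.33 at 250 ppm and 7.15, 7.01, 7.17 and 7.09 at 750 ppm (-0.41, SE 0.09, adjusted p = 0.307). Its male controls read 7.22, 7.20, 7.09 and 7.41, so the 750 ppm males differed from controls by -0.12 and the 250 ppm males by 0.29. Rpgr, a protein of cilia, had means of 8.32 at 250 ppm, 7.88 at 750 ppm and 7.91 in controls (-0.43, SE 0.11). Its other probe set gave -0.34 (SE 0.10). In both genes the 250 ppm mean lay farther from the control mean than the 750 ppm mean did. Grm2, an inhibitory glutamate receptor of presynaptic terminals, read 8.58, 8.88, 8.85 and 9.15 against 8.51, 8.46, 8.58 and 8.45 (-0.37, SE 0.09), and Stxbp5, which restrains vesicle fusion, read 9.94 to 10.03 against 9.77 to 9.81 (-0.18, SE 0.04). Rab7b, a GTPase of late endosomes, differed by -0.34 (SE 0.10), Tmem14a, a mitochondrial membrane protein, by -0.31 (SE 0.08), and Dgka, a lipid kinase, by -0.21 (SE 0.06). Tm4sf19, a tetraspan membrane protein, differed by -0.53 (SE 0.14). Klk1c8, of a kallikrein family with near-identical copies that the probes may not separate, differed by -0.30 (SE 0.09).

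The females exposed to the same postnatal doses are separate animals, and their dose difference did not choose these 24 genes. Their arrays entered the pooled variance behind the choice, however, so p-values in males and females are not independent. Males and females of a dose may also be littermates, since the labels give no litter. Differences that the sexes share through litter were not tested. In females 21 of the 24 had the same direction, against 53.1% of all 14506 genes. An unadjusted p under 0.05 in the same direction was found in females for 10 of the 24, where 542 of 14506 genes (3.74%) had such a p in either direction. The 10 were Slc18a1, Fkbp1a, C5ar1, Cd44, Zbtb45, Xpa, Rpgr, Tmem14a, Tm4sf19 and Rab7b. Rab7b differed in females by -0.50, Tm4sf19 by -0.52, Rpgr by -0.47, C5ar1 by 0.28 and Cd44 by 0.28. Fcrl2, Nkg7 and Klk1c8 were the 3 whose sign differed, Nkg7 at -0.03 and Klk1c8 at 0.02. No probe set was called in females by limma (smallest adjusted p = 0.0926), where 1068 had an unadjusted p under 0.05. The 8 arrays of perinatal males include the 3 with flattened signal. In perinatal males 14 of the 24 had the same direction, against 50.9% of all genes. An unadjusted p under 0.05 was found there for 9 of the 24, 5 in the same and 4 in the opposite direction, where 856 of 14506 genes (5.9%) had such a p, and these males share the pooled variance too. Over all genes the dose difference in postnatal males correlated with that in females at r = 0.16 and with that in perinatal males at r = 0.016, across genes, which are not independent of each other.

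**Figure D3:**
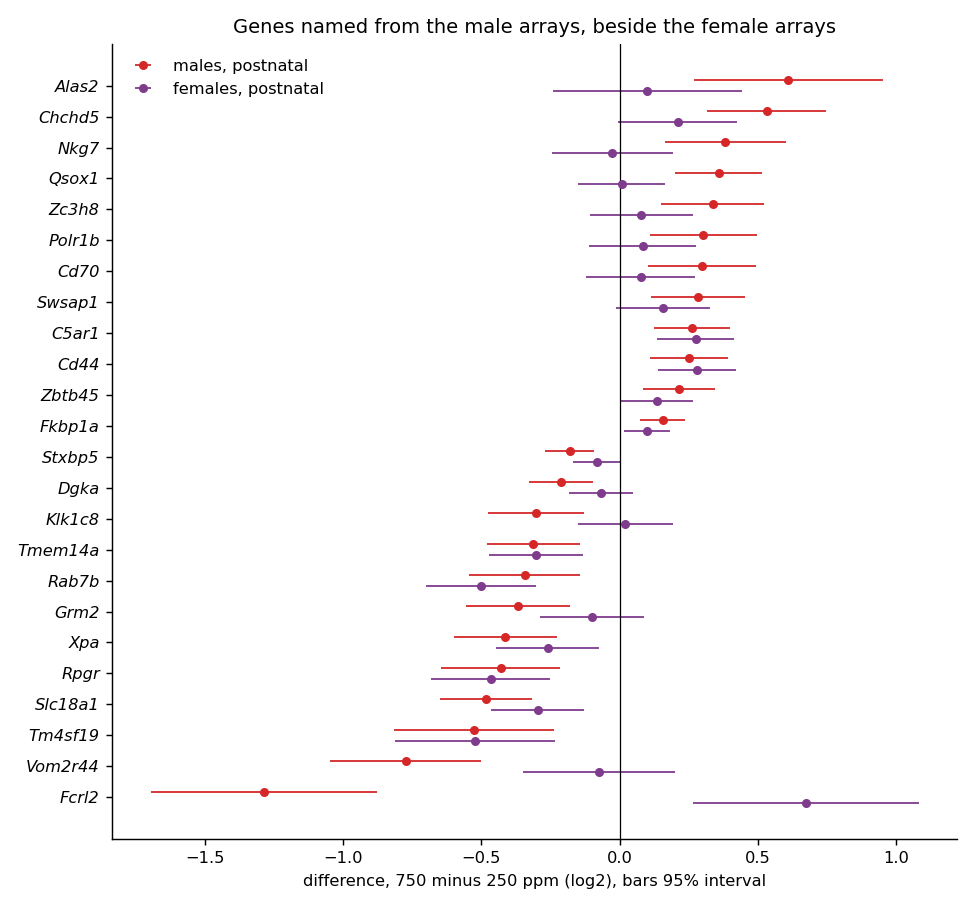
Points are the differences between 750 and 250 ppm after postnatal exposure (x axis, log2), with bars for 95% intervals, in males (red) and females (purple) for the 24 genes of smallest p in males whose groups did not overlap (y axis). The red points lie off 0 because males chose the genes. The purple points lie on the same side for 21 of 24, and Fcrl2 stands at -1.29 in males and 0.67 in females.

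Red blood cell genes are given next, since lead acts on heme synthesis. Of 18 measured red cell genes, 10 were higher and 8 lower at 750 ppm, with a median of 0.04. Those with an unadjusted p under 0.05 were 6 (33.3%, against 3.7% of all genes), all higher, and 0 were called. Alas2, the erythroid enzyme that starts heme synthesis, read 7.84, 7.71, 7.79 and 7.82 at 250 ppm and 8.54, 8.72, 7.95 and 8.38 at 750 ppm (0.61, SE 0.17, adjusted p = 0.9). Hbb-b1, a beta globin, read 10.44, 10.01, 10.42 and 10.55 against 11.14, 11.10, 10.35 and 10.96 (0.53, SE 0.20). Of the other globin genes, Hbb, its close copy, read 10.93 to 11.27 at 250 ppm, and at 750 ppm read 11.90, 11.82 and 11.49 with replicate 3 inside the 250 ppm range (0.50, SE 0.19). The same 3 arrays at 750 ppm were high for all of these genes, and replicate 3, the array of low Ttr, lay within or near the 250 ppm range. The alpha globin Hba-a3 differed by 0.34 (SE 0.14), the chaperone of free alpha globin Ahsp by 0.48 (SE 0.23), and the red cell anion exchanger Slc4a1 by 0.26 (SE 0.12). Probes for the beta globin copies may share transcripts, so Hbb and Hbb-b1 are not separate evidence.

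Without the 750 ppm replicate 3 the differences were 0.76 for Alas2, 0.68 for Hbb, 0.71 for Hbb-b1, 0.50 for Hba-a3 and 0.38 for Slc4a1, still not called, and 13 of the 18 genes were higher, 6 of them at an unadjusted p under 0.05. That array was the lowest at 750 ppm for these genes, so leaving it out raises their differences. Over all 8 arrays left out in turn, the differences reached down to 0.50 for Alas2, 0.39 for Hbb, 0.42 for Hbb-b1, 0.22 for Hba-a3 (without the 750 ppm replicate 1), 0.17 for Slc4a1 (without the 750 ppm replicate 2) and 0.35 for Ahsp. The count of 6 fell to 2 without the 750 ppm replicate 1 and to 3 without the 750 ppm replicate 2 or the 250 ppm replicate 2. The erythroid factors were not higher with them: Klf1 differed by 0.08 (SE 0.08) and Gata1 by -0.26 (SE 0.13), and the membrane skeleton genes Sptb and Ank1 by -0.0049 and -0.03. The remaining members were Hbg1 (0.13), Rhd (0.13), Epb42 (0.0085), Epor (-0.02), Trim10 (-0.04), Rhag (-0.05), Hbe2 (-0.07) and Hbe1 (-0.16). In females the list's median was -0.02 and in perinatal males -0.03. The mean log2 signal of the list was 6.59 to 6.70 at 250 ppm and 6.61 to 6.91 at 750 ppm, and the part of blood left in the dissected tissue was not tested.

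Sequence upstream of the start site is shown for the red cell genes with an unadjusted p under 0.05, to let their proximal promoters be compared. Of these 6 genes 4 were in the RefSeq table of the GRCr8 assembly, and 250 bases before each start are printed 5′ to 3′ on the gene's own strand. Capitals mark GATA words (GATA with A or T before it and A or G after it) and CACCC words (CACCC with CCA or CCG before it), on either strand.
Alas2 (GRCr8 chrX:22895200-22895449, plus strand): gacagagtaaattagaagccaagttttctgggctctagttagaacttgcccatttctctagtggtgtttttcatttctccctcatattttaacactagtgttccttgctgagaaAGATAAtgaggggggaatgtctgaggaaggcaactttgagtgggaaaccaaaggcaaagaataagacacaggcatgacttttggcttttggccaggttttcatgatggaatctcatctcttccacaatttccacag
Hbb-b1 (GRCr8 chr1:167643521-167643770, minus strand): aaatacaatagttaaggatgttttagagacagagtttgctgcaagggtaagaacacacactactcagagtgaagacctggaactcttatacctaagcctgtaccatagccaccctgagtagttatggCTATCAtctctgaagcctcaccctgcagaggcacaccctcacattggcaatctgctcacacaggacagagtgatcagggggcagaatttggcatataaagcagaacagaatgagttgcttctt
Hbb (GRCr8 chr1:167663722-167663971, minus strand): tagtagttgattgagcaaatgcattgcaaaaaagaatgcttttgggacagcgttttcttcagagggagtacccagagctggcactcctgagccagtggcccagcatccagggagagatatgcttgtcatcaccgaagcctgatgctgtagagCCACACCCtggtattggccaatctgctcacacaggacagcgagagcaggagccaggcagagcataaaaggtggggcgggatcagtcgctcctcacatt
Hba-a3 (GRCr8 chr10:15816944-15817193, minus strand): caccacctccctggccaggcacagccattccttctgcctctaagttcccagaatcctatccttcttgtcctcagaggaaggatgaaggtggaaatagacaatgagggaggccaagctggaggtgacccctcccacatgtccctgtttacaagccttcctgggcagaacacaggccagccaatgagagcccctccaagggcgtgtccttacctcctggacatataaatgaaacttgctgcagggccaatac
Alas2 held 1 GATA word, starting 136 bases before the start on the gene's strand, and Hbb-b1 held 1, starting at 123 bases on the opposite strand. Hbb held 1 CACCC word at 98 bases, and Hba-a3 held 0 of either. Of 27457 promoters of this length 26.7% held a GATA word and 4.14% a CACCC word, and 2 of the 4 held the former and 1 the latter. A word is a match of letters, not a bound site.

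In the heme pathway, 10 of 13 measured genes were higher, with a median of 0.03. An unadjusted p under 0.05 was found for 1 (7.69%, against 3.7% of all genes). That gene was Uros, uroporphyrinogen III synthase, which read 6.82 to 7.13 at 250 ppm and 7.32, 7.17, 7.53 and 7.38 at 750 ppm (0.39, SE 0.15), with 6.95, 6.67, 6.57 and 6.79 in male controls. Its groups did not overlap, and the 750 ppm replicate 3 was its highest array, unlike for the globins. Alad, the synthesis enzyme most sensitive to lead, read 8.58 to 8.66 at 250 ppm and 8.67 to 8.73 at 750 ppm, without overlap but by 0.07 (SE 0.07). The housekeeping synthase Alas1 differed by -0.00098 (SE 0.05) and Fech, which inserts iron, by 0.03 (SE 0.07). The middle enzymes Urod, Cpox and Ppox differed by 0.0050, 0.09 and 0.13 (SE 0.08 each). Heme breakdown genes gave 0.03 for Hmox1 (SE 0.09), 0.09 for Hmox2 (SE 0.08), 0.03 for Blvra and 0.12 for Blvrb (SE 0.11 each). The mitochondrial carriers Abcb10 and Slc25a38 gave -0.0067 and -0.06.

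**Figure D4:**
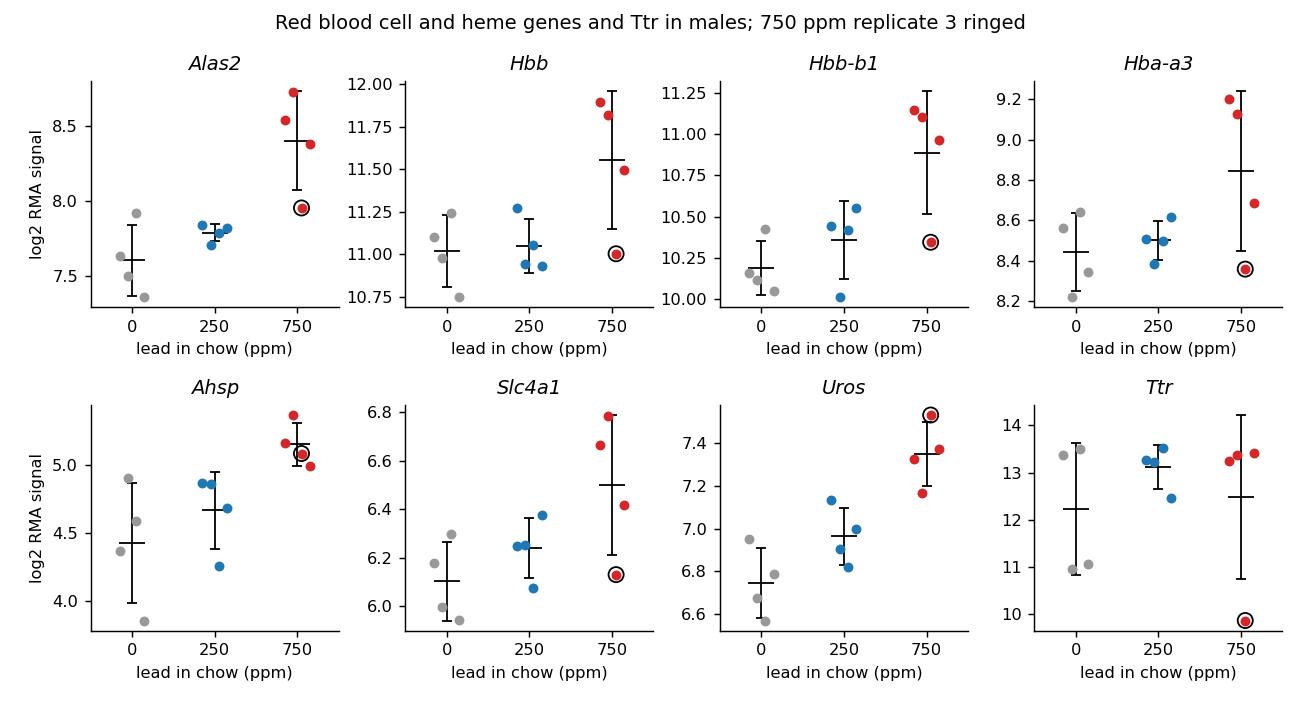
Points are log2 RMA signals (y axis) of Alas2, Hbb, Hbb-b1, Hba-a3, Ahsp, Slc4a1, Uros and Ttr in males by lead in chow (x axis, 0, 250 and 750 ppm, postnatal exposure), with mean and SD of 4 arrays. The ringed point is the 750 ppm replicate 3, which reads 9.87 for Ttr and lies lowest of the 750 ppm arrays for Alas2, the 3 globins and Slc4a1, and highest for Uros.

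Genes of metal handling gave small differences. Of 23 metallothioneins and zinc transporters, 10 were higher and 13 lower, the median was -0.02, and 0 had an unadjusted p under 0.05. The metallothioneins Mt1, Mt2A and Mt3, which bind zinc and copper and are induced by many metals, differed by -0.06, -0.05 and 0.05, and the zinc exporter Slc30a2 by -0.19 (SE 0.10). Of 22 genes of iron and copper handling, 6 were higher and 16 lower with a median of -0.03. The copper pump Atp7b read 6.99, 7.07, 6.87 and 7.02 at 250 ppm and 6.68, 6.67, 6.81 and 6.80 at 750 ppm (-0.25, SE 0.09), without overlap and not called. The iron store Fth1 read 12.53 to 12.56 and 12.58 to 12.66 (0.07, SE 0.03). Of 32 antioxidant and glutathione genes 22 were higher (median 0.03), and of 29 heat shock and ER stress genes 17 (median 0.03), with 0 at an unadjusted p under 0.05 in each.

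Neuronal targets of lead gave small differences, and no probe set of these lists was called. Of the 7 NMDA receptor subunits 2 were higher and 5 lower, with a median of -0.0094 and a range of -0.08 (Grin3b) to 0.05 (Grin3a), and their 95% intervals lay within -0.25 to 0.27. The obligatory subunit Grin1 read 11.04 to 11.16 at 250 ppm and 11.11 to 11.17 at 750 ppm (0.03, SE 0.04), and Grin2a read 11.40 to 11.51 and 11.36 to 11.51 (-0.04, SE 0.03). The 9 AMPA and kainate subunits had a median of -0.03, the 28 genes of vesicle release 0.0063 and the 22 postsynaptic scaffold genes 0.00039, with 0 at an unadjusted p under 0.05 in each list. Of 22 CaM kinase and protein kinase C genes, 9 were higher, and Camkk1, the kinase above Camk1 and Camk4, had 0.13 (SE 0.06). Of 37 calcium channel, pump and release genes, 12 were higher and 25 lower (median -0.03), and 3 had an unadjusted p under 0.05 (8.11%, against 3.7% of all genes), all lower: Cacna2d1, a channel subunit (-0.13, SE 0.04), Atp2b1, a plasma membrane calcium pump (-0.11, SE 0.04), and Cacng3, an AMPA receptor partner (-0.14, SE 0.06). Of 16 GABA-A subunits, Gabrq read 6.70, 6.80, 5.52 and 6.47 at 250 ppm and 7.04, 7.12, 6.61 and 6.84 at 750 ppm (0.53, SE 0.20), where the groups overlap and the 250 ppm replicate 3 is low. Of 33 activity-induced genes 19 were higher (median 0.03) and 0 had an unadjusted p under 0.05.

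Cell type markers showed small shifts and 1 array set apart. Median differences were 0.03 for 16 mature myelin genes, -0.01 for 13 astrocyte genes, 0.05 for 16 pyramidal cell genes, 0.0016 for 7 dentate granule cell genes and 0.05 for 18 interneuron and neuropeptide genes, of which 16 were higher. Of 22 endothelial and mural genes, 13 were higher and 9 lower (median 0.03, lowest Pdgfrb, a pericyte receptor, at -0.09), and 2 had an unadjusted p under 0.05 (9.09%, against 3.7% of all genes): the endothelial adhesion protein Pecam1 (7.54 to 7.91 at 250 ppm and 7.92 to 8.04 at 750 ppm, 0.25, SE 0.11) and the surface protein Cd93 (0.27, SE 0.11). Without the 750 ppm replicate 3, 20 of the 22 were higher (median 0.08), alongside the larger red cell differences, and without the 750 ppm replicate 2, 11 were. The mean log2 signal of the list was 8.02 to 8.29 at 250 ppm and 8.06 to 8.35 at 750 ppm, and its part in the red cell values was not tested. The 15 choroid plexus and ependyma genes had a median of -0.21 with 14 lower, and without the 750 ppm replicate 3 a median of 0.34 with 15 higher. That array alone turned the direction of this list, whose mean log2 signal was 6.88 on it and 7.96 to 9.73 on the other 7 arrays. Of 19 meningeal and matrix genes 12 were lower, and without the same array 18 were higher and 1 lower, at -0.48. Fbln2, a matrix protein, differed by -0.50 (SE 0.17) with all arrays. Of the 1099 olfactory receptor genes 366 were higher and 733 lower (median -0.05), and with each array's signal slope as a covariate the median was -0.0074.

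**Figure D5:**
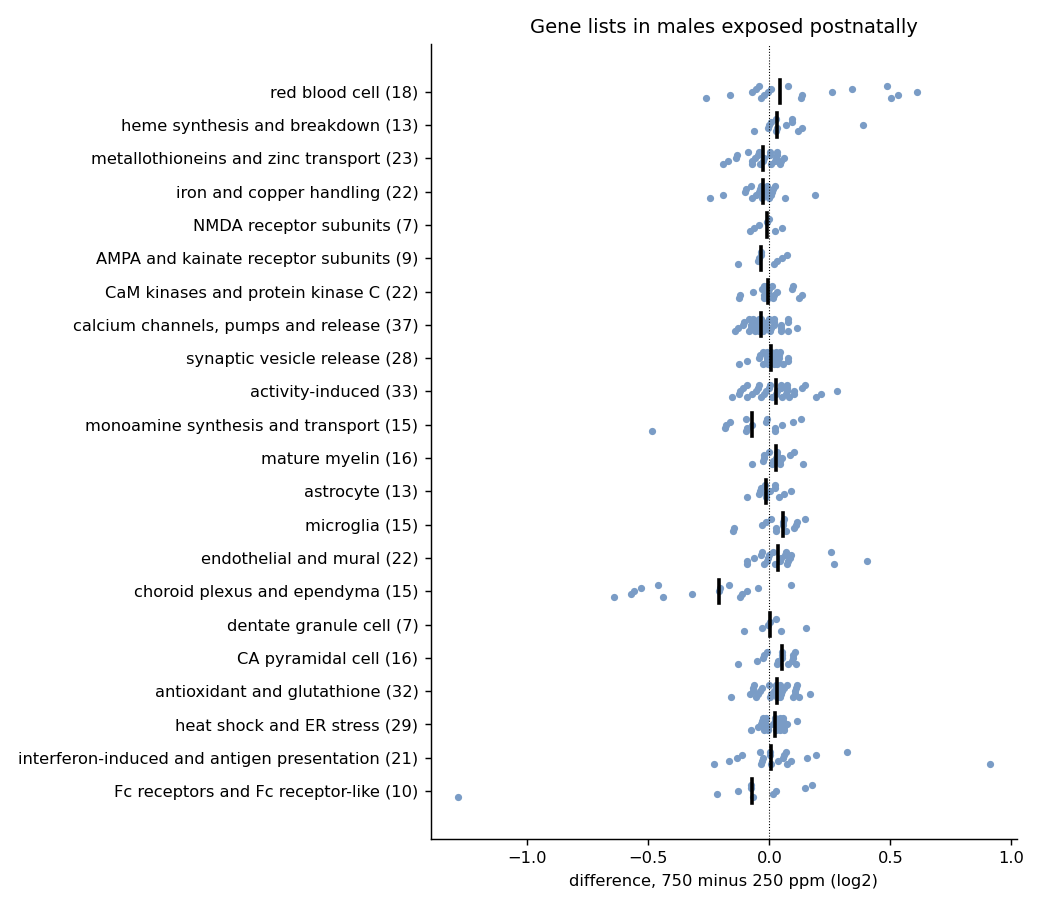
Each point is the difference between 750 and 250 ppm in postnatal males (x axis, log2) of 1 gene of a list (y axis, with the number of genes measured), and the black bar is the list's median. Most medians lie within 0.1 of 0. Single genes such as Fcrl2 and Mx2 stand far from their lists, and the choroid plexus list is spread to the left.

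Other large differences were not called with all arrays in the fit. Tktl1, a transketolase-like enzyme of sugar metabolism, read 4.97, 5.07, 5.07 and 4.99 at 250 ppm and 6.19, 4.93, 6.31 and 6.87 at 750 ppm. Its difference was 1.05 (SE 0.22, adjusted p = 0.166), with 3 of 4 arrays high and replicate 2 below the 250 ppm range, and it was called once that replicate was left out. Mx2, an interferon-induced antiviral protein, read 8.13, 6.71, 7.03 and 8.16 at 250 ppm and 8.37, 8.40, 8.56 and 8.35 at 750 ppm (0.91, SE 0.35). Its 2 low arrays were both at 250 ppm. Rsad2, another interferon-induced gene, differed by 0.32 (SE 0.12) and the interferon signalling factor Stat2 by -0.17 (SE 0.08). Of 21 genes of that list 13 were higher, with a median of 0.0051. Crabp1, a retinoic acid binding protein, read 9.31, 9.36, 9.06 and 9.40 at 250 ppm and 9.08, 8.33, 8.81 and 8.53 at 750 ppm (-0.60, SE 0.15). The largest difference of any probe set, -1.76 (SE 0.49, adjusted p = 0.9), came from 5 unnamed probe sets with identical values, which count as 1 measurement.

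The contrast of the dose difference between windows also called the unnamed probe set 10724341. It read 4.92, 3.79, 4.36 and 5.65 at 250 ppm and 5.65, 5.32, 5.17 and 6.04 at 750 ppm after postnatal exposure, and 4.85, 5.63, 4.61 and 4.68 against 3.81, 3.81, 3.61 and 4.08 after perinatal exposure. Its contrast was 1.98 (SE 0.35, adjusted p = 0.0335). Txnip, an inhibitor of thioredoxin that responds to glucose, came next to Chchd5 in that contrast at 1.08 (SE 0.21, adjusted p = 0.0744). For Txnip the difference was 0.17 (SE 0.15) in postnatal males and -0.91 (SE 0.15) in perinatal males.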

How the data were processed

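Hippocampal RNA (100 ng a sample) was labelled and hybridised to Affymetrix arrays, 1 a sample. The deposited values are log2 signals made by the authors; per the submitters' processing notes, RMA and Partek were used, with no version given, and array type settings and genome build are not given in the sources used here. Values were used as deposited. Groups came from the labels. Of 29214 probe sets 15310 carried 1 gene symbol, 323 several and 13581 none, by the platform annotation. Values of 198 probe sets copy those of another.

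A limma model (3.58.1, R 4.3.3) with a mean for each of 10 groups used all 40 arrays, and variances were moderated by eBayes with a trend. P-values are two-sided, adjusted by Benjamini-Hochberg over all probe sets within a contrast, and called under 0.05. The fit was also run on simulated data for this comparison (29214 probe sets). It found 74% of 100 shifts of 0.5 log2 and 96% of 100 of 1.0, with 6 false calls. The many planted shifts eased the adjusted threshold, and noise was drawn independently for each probe set and array. These rates therefore do not carry over to the real contrast with its 3 calls. There Chchd5 at 0.53 (limma, adjusted p = 0.122) and Tktl1 at 1.05 (adjusted p = 0.166) were not called.

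The arrays, the 46 gene lists and the rules were chosen with earlier results of these data known. Genes were named by rule: every called probe set, the 12 higher and 12 lower genes of smallest p without overlap, all red cell and heme genes, up to 4 of smallest p of every other list described, 3 of each interaction, and family members of called genes. Tktl1, Crabp1, P2ry12, Tmem119, Mt1, Mt2A, Mt3, Grin3a and Eif2s3 were named outside it. So were the genes neighbouring Fcrl2, Slc18a1, Vom2r44 and Chchd5, except Polr1b and Zc3h8, and the unnamed probe sets outside the interactions. Some of these were named after their values were seen. Alternatives were a filter on dim probe sets, further normalizations, other fits and leaving out arrays. The number of arrays limits the precision. Figures used matplotlib.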

Additional observations from a re-analysis of the deposited data

Results flagged for a closer look

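Fcrl2 differed between doses in opposite directions by sex and by window: the contrast of dose differences was -1.96 by sex (adjusted p = 0.00158) and -2.22 by window in males (adjusted p = 0.000114). The unnamed probe set 10724341 differed by window at 1.98 (adjusted p = 0.0335).

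Of 120 sets of 4 arrays examined, 6 (5%) had 1 array far from the other 3 by Dixon's ratio (gap over range), about the 1 in 20 that chance gives. For Fcrl2 the 750 ppm replicate 4 read 5.63 beside 5.89 to 5.91 (ratio 0.902). For Cd70 the 750 ppm replicate 3 read 6.65 beside 6.36 to 6.40 (0.881). For Dgka the 250 ppm replicate 4 read 9.30 beside 9.49 to 9.50 (0.945). For Rhag the 750 ppm replicate 4 read 3.70 beside 3.87 to 3.90 (0.844), and for Sptb the 750 ppm replicate 1 read 8.89 beside 8.81 to 8.82 (0.945). The mean of the choroid plexus and ependyma genes was 6.88 in the 750 ppm replicate 3 and 9.09 to 9.45 in the other 3 (0.857).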

How the results depend on the processing

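The 3 calls between doses in postnatal males became 2 without the dimmest 40% of probe sets, which removes Vom2r44, 1 after a further quantile normalization, 8 with only the compared groups in the fit (Fcrl2 kept, 5 of the 7 added being copies of 1 measurement), 0 without control arrays in the fit and 0 to 3 when 1 array was left out. Subtracting array medians, dropping the variance trend, robust moderation, the slope covariate and, both chosen after seeing the data, leaving out the 3 mismatched controls or the 3 flattened arrays all gave 3 with the same genes. The contrast by sex gave 1 in all 27 alternatives. The contrast by window gave 1 without the dimmest 40% of probe sets, with only the compared groups, with robust moderation, with the slope covariate and without the mismatched controls, and 1 to 10 when 1 array was left out, 10 without the 750 ppm perinatal replicate 3 and 4 without the 250 ppm postnatal replicate 4. Females gave 10 without controls in the fit, 9 with array weights, 1 without the flattened arrays and 0 to 1 when 1 array was left out. Perinatal males (12 calls) gave 7 with only the compared groups, 19 without controls in the fit, 0 with array weights, 19 with the slope covariate, 1 without the flattened arrays and 3 to 21 when 1 array was left out. None of the 3 genes called between doses in postnatal males changed direction in that contrast. Directions of the genes called in the other contrasts were not followed.

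Of the 46 list medians 33 changed sign under at least 1 alternative. The choroid plexus list did so farthest from 0 (-0.21 with all arrays, 0.34 without the 750 ppm replicate 3), as did its gene Ttr (-0.64 and 0.23), and the other 32 medians lay between -0.07 and 0.03. Meningeal genes went from -0.03 to 0.30 without the same array. Some uncalled red cell and heme genes near 0 also changed sign. A further quantile normalization gave Epor 0.0089, Trim10 0.0084 and Urod -0.014. Subtracted medians gave Epor 0.0033, Sptb 0.019, Abcb10 0.017 and Alas1 0.023. Array weights gave Abcb10 0.00011 and Alas1 0.0077. The slope covariate gave Epor 0.059, Rhag 0.0013, Trim10 0.047, Blvra -0.0037 and Urod -0.031. With 1 array left out the ranges were -0.096 to 0.017 for Ank1, -0.072 to 0.055 for Epb42, -0.054 to 0.022 for Epor, -0.053 to 0.045 for Sptb, -0.095 to 0.051 for Trim10, -0.043 to 0.030 for Abcb10, -0.019 to 0.028 for Alas1, -0.057 to 0.095 for Blvra, -0.0080 to 0.088 for Fech, -0.050 to 0.080 for Hmox1 and -0.017 to 0.042 for Urod. The cause was not tested. No paired analysis was possible because the labels give no replicate numbers shared between groups.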
